A study of Mus musculus with 8 samples.

Results

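Stat5a and Stat2, members of the STAT family of transcription factors, were 2 of the 1931 genes in the deposited table of kidney transcripts and were picked by gene name. They are the 2 STAT genes of the table, and the rest of the family is not analysed here. All 8 samples were kidneys from MRL-lpr mice, which develop lupus-like disease and carry a loss-of-function mutation of the death receptor gene Fas, at 12 weeks of age. There were 4 control samples and 4 from mice that drank water with 200 mM propionate, a short-chain fatty acid that gut bacteria release, over 6 weeks. Both groups carried the lpr mutation, so every difference below lies within the diseased strain. The sources used here do not say what the control mice drank or which sex the mice were, and the labels do not state that each library is a separate animal.

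STAT proteins lie inactive in the cytoplasm until a cytokine or hormone receptor activates a bound Janus kinase, which phosphorylates the receptor and then the STAT protein on a tyrosine. Paired STAT proteins enter the nucleus and bind DNA, and the SOCS and PIAS families restrain the signal. Stat5a answers growth hormone, prolactin and cytokines of the interleukin-2 and GM-CSF type, and binds palindromic GAS sites. Stat2 answers type I and type III interferons as part of a complex with Irf9, which binds interferon-stimulated response elements (ISRE). Type I interferon is a much studied axis of lupus, in the kidney as elsewhere.

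The table had been selected on these same libraries. No unadjusted p in the authors' deposited table exceeds 0.05, and 948 genes were lower and 983 higher with propionate. If no gene differed, about 803 of the 16064 genes behind the deposited adjustment would still be expected to pass such a selection. The difference between the groups therefore chose Stat5a and Stat2, and it is given below as a description with no test. Libraries held 20005328 to 26711127 assigned reads, of which the listed genes took 13.4% to 15.1%. The levels are scaled counts (reads divided by the authors' size factor of the library) or FPKM (fragments normalised to gene length and to the assigned reads of the library).

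Stat5a transcripts were about 1.49-fold more abundant in control kidneys than in kidneys of propionate-treated mice, and the groups did not overlap. The control samples had 552, 552, 490 and 560.1 scaled counts. The propionate samples had 368, 403, 324 and 354. All 4 propionate samples lay below the lowest control sample, and 3 of the 4 controls lay close together with replicate 3 under them. The group means were 538 ± 32.5 for control and 362 ± 33.0 for propionate (SD, n = 4), so the propionate mean stood at 67.3% of control. The edgeR log2 fold change, propionate over control, was -0.57 ± 0.09 (SE). Non-overlapping groups were found for 47.6% of the listed genes, which the selection of the table favours, so this feature does not set Stat5a apart.

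Stat2 differed by less, and its groups overlapped. The control samples had 741, 594, 738 and 646 scaled counts and the propionate samples 674, 536, 600.2 and 430.2. Of the propionate samples, 2 lay below the lowest control and the other 2 lay within the control range. The means were 680.1 ± 72.2 for control and 560.1 ± 103 for propionate (SD, n = 4), with the propionate mean at 82.3% of control. The edgeR log2 fold change was -0.28 ± 0.13 (SE). The lowest value, propionate replicate 4, carried much of it: without that library the log2 fold change was -0.17 ± 0.11 (SE).

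**Figure D1:**
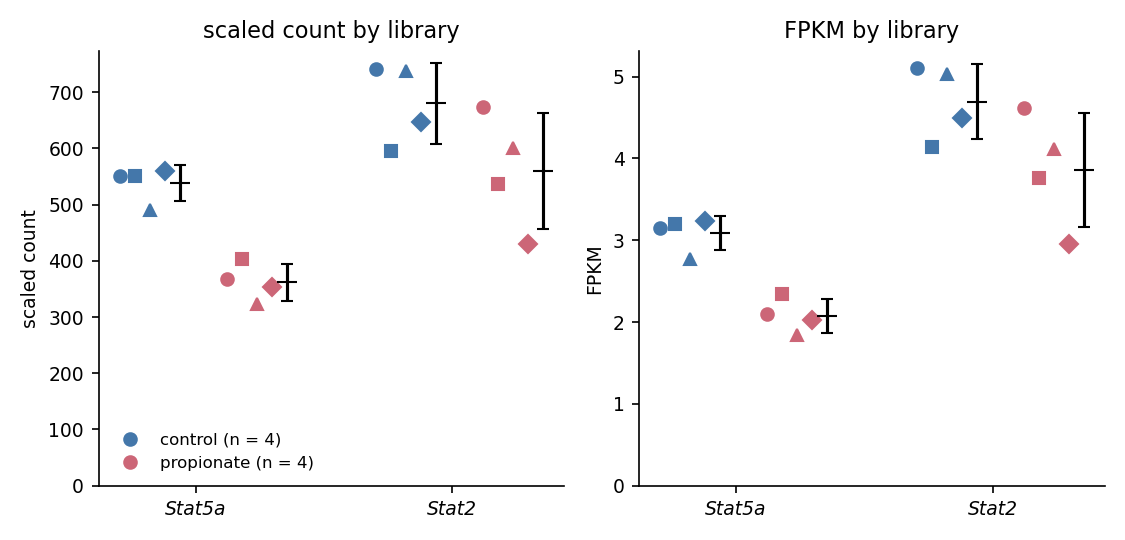
Scaled counts (left) and FPKM (right) of Stat5a and Stat2 in each of the 4 control and 4 propionate libraries, with circle, square, triangle and diamond for replicates 1 to 4 and bars for the mean ± SD. The Stat5a groups are apart, with 490 scaled counts as the lowest control and 403 as the highest propionate value, and the Stat2 groups overlap.

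Per gene length, Stat5a was the less abundant transcript in 8 of 8 libraries. Stat5a stood at 3.15, 3.19, 2.78 and 3.23 FPKM in control and at 2.09, 2.35, 1.84 and 2.02 FPKM with propionate. Stat2 stood at 5.10, 4.14, 5.04 and 4.49 FPKM in control and at 4.61, 3.76, 4.11 and 2.96 FPKM with propionate. These are modest levels among the listed genes: by mean FPKM, 32.4% of the listed genes lay below Stat5a and 43.3% below Stat2. The ratio of Stat5a to Stat2 FPKM was 0.62, 0.77, 0.55 and 0.72 in control and 0.45, 0.62, 0.45 and 0.68 with propionate. Its means were 0.67 ± 0.10 and 0.55 ± 0.12 (SD, n = 4), and the groups overlapped.

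Stat5a had 351 to 592 reads per library and Stat2 434 to 774. Counting alone would give a coefficient of variation of 4.71% at the mean count of Stat5a over the 8 libraries and 4.01% at that of Stat2. This covers counting error only. The observed coefficient of variation of the scaled counts was 6.04% in control and 9.11% with propionate for Stat5a, and 10.6% and 18.4% for Stat2. The Stat5a control group had the observed spread nearest to that of counting alone. Counting error is somewhat smaller than 4.71% there, since the control counts were higher than the mean over both groups. Stat2, with more reads, had the wider spread in both groups.

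The genes stood at opposite ends of the authors' selection. In the authors' deposited table Stat5a has an unadjusted p of 3.9e-08, the rank 8 of 1931, and an adjusted p of 7.03e-05. Stat2 has an unadjusted p of 0.0490 and an adjusted p of 0.443 there, and 22 listed genes have a larger unadjusted p. Just inside the threshold beside Stat2 stand Fam20c at 0.0490 and Ppif at 0.0491 in the authors' deposited table, and genes outside it are not analysed here. Of the listed genes, 8.13% have an adjusted p under 0.05 in the authors' deposited table, Stat5a among them and Stat2 not. Of the listed genes lower with propionate, 64.1% had a smaller absolute deposited log2 fold change than Stat5a and 31.0% a smaller one than Stat2. The small p of Stat5a thus went with a difference of middling size and a narrow spread.

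**Figure D2:**
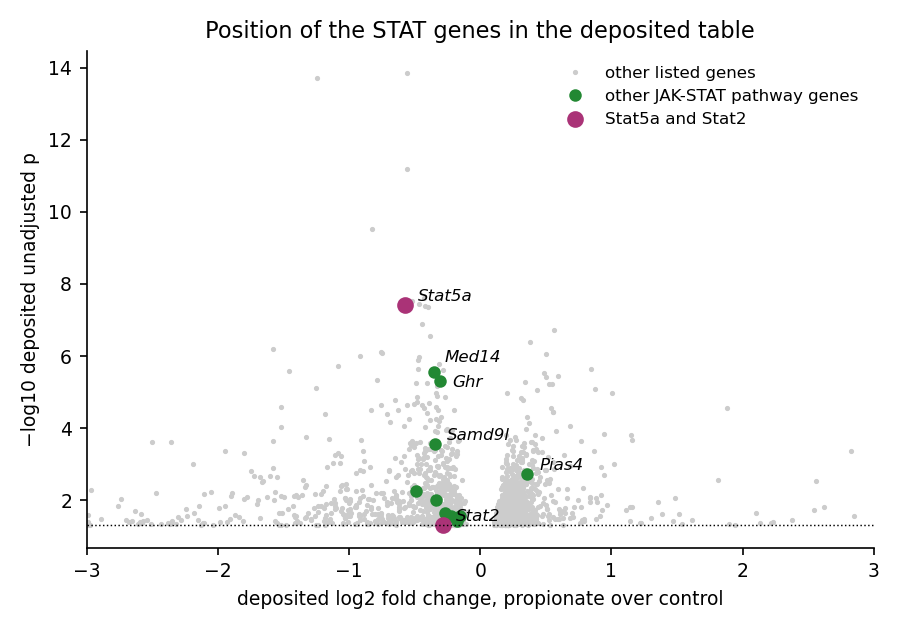
Deposited log2 fold change, propionate over control, against -log10 of the deposited unadjusted p for the listed genes, with Stat5a and Stat2 and the other JAK-STAT pathway genes in colour (58 points lie beyond ±3 on the x axis and are not drawn). Stat5a has the rank 8 by p, and Stat2 lies at the dotted selection line of 0.05.

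Within each group the pair did not move together. After each group was centred on its own mean, Stat5a and Stat2 had a Pearson correlation of -0.20 over 8 libraries, computed on log2(scaled count + 1). Of 1534 other protein-coding genes whose mean reached 50 scaled counts, 952 were closer to Stat5a than Stat2 was. From the other side, 697 were closer to Stat2 than Stat5a was. The median correlation was -0.07 with Stat5a and -0.27 with Stat2. In both groups Stat2 was highest in replicates 1 and 3, while Stat5a was lowest in replicate 3. These correlations are descriptions over libraries that share depth and cell composition, and the genes below are the extremes of 1534.

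The genes whose scatter was most like that of Stat5a were Sned1 (r = 0.96), Khnyn (0.91), the immunoglobulin Fc receptor gene Fcamr (0.88), the Dickkopf receptor gene Kremen1 (0.87) and the cytochrome P450 gene Cyp2d9 (0.87), over 8 libraries. For Stat5a the middle 90% of genes ranged from -0.65 to 0.60. The deposited differences of these 5 went both ways: Sned1 and Khnyn were lower with propionate like Stat5a, and Fcamr, Kremen1 and Cyp2d9 were higher.

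The genes most like Stat2 were Vwa5a (r = 0.98), Gcc2 (0.96), the phosphoinositide 3-kinase adaptor gene Pik3ap1 (0.95), Eif2ak2 (0.94) and the immune receptor gene Lilrb4b (0.94), over 8 libraries. For Stat2 the middle 90% of genes ranged from -0.87 to 0.76. All 5 were lower with propionate in the authors' deposited table, as were 49.1% of the listed genes. Cyp2d9 and Lilrb4b belong to families of close copies, so their counts are uncertain.

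**Figure D3:**
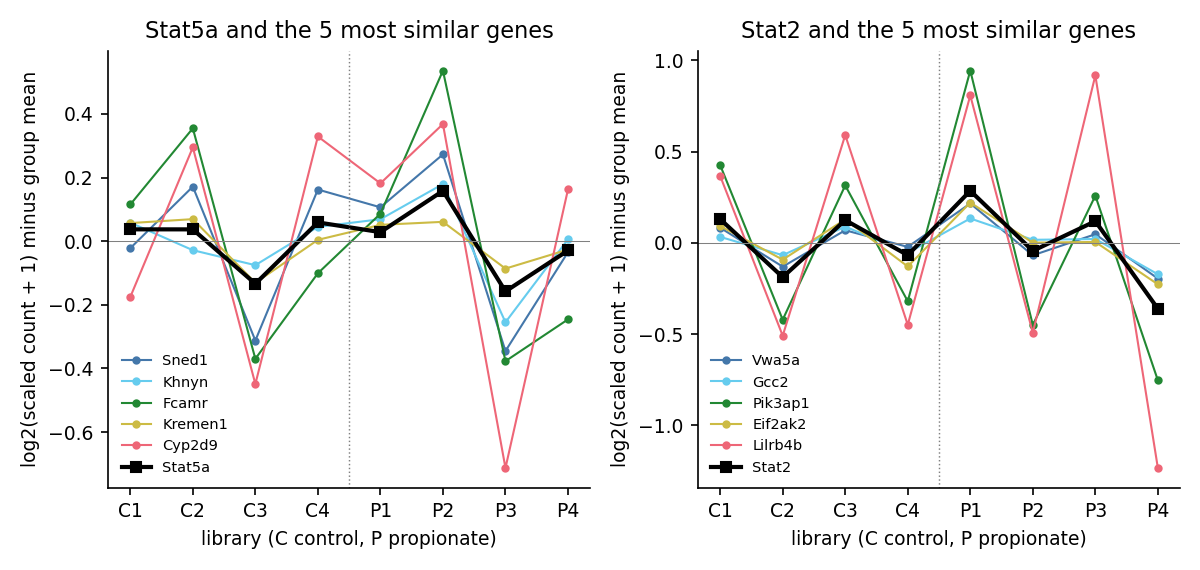
Deviation of log2(scaled count + 1) from the group mean in the 8 libraries for Stat5a (left) and Stat2 (right), each with the 5 genes most like it. Stat2 is above its group mean in replicates 1 and 3 of both groups, and Stat5a is lowest in replicate 3 of both.

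Some markers of myeloid cells followed the order of Stat2 across libraries and others did not. Of 17 myeloid markers 5 are in the table (Cd68, Itgam, Mrc1, Adgre4 and Itgb2l), each lower with propionate and none at 0 in any library. The selection of the table chose these 5 by their group difference, and the other markers are not analysed here. Among all listed genes 49.1% were lower. An adjusted p under 0.05 in the authors' deposited table was listed for 2 of the 5, where 5.33% of the listed genes are called lower. Their summed FPKM was 15.9, 7.58, 15.3 and 9.74 in control and 9.33, 4.79, 9.54 and 4.46 with propionate, highest in replicates 1 and 3 of each group. Cd68 made up most of that sum, and Cd68 and Itgam were themselves highest in replicates 1 and 3 of both groups. Mrc1 and Adgre4 were highest in those replicates in control only, and Itgb2l in neither group. The sum ranged from 7.58 to 15.9 in control and from 4.46 to 9.54 with propionate. Fewer cells of a type and less RNA per cell cannot be told apart in such bulk samples, and the part of the myeloid markers in the differences of Stat2 and Stat5a was not tested.

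Other marker lists were present in part. Of 17 proximal tubule markers 11 are listed, at a summed 2974 to 3648 FPKM in control and 3131 to 3747 with propionate. Markers of the main kidney epithelium were thus abundant in all 8 libraries. Of the 11, 4 were lower and 7 higher with propionate, which the sum does not show. Miox and Slc34a1 made up most of that sum. Of 13 distal nephron markers 5 are listed, at 383 to 425 FPKM in control and 439 to 517 with propionate. All 5 were higher with propionate, as were 983 of the 1931 listed genes, and Cdh16 made up most of their sum. The selection of the table chose the listed markers of each type by their group difference, and the other markers are not analysed here. For podocyte, endothelial and stromal cells 1 of 17 is listed (Ren1, at 35.2 to 70.4 FPKM in control and 62.2 to 78.4 with propionate). Of 18 lymphocyte markers 0 are listed, so that list cannot show a change in lymphocytes. Immunoglobulin V genes outside it, Ighv1-47 and Ighv1-42 among them, are in the table and were not examined here. The part of these cell types in the STAT differences was not tested.

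Beyond Stat5a and Stat2, 10 of 168 JAK-STAT pathway genes are in the table, 9 lower with propionate and 1 higher. Of all listed genes, 49.1% were lower. Being in the table is itself the selection at an unadjusted p of 0.05. The table holds 1931 genes, against 16064 genes behind the deposited adjustment. The listed share of the 168 is no higher than that. These shares are not on the same base, since the 168 were not limited to genes behind the adjustment. The listed share is therefore not a result about the pathway. The same background applies to the counts of the shorter lists below. The median deposited log2 fold change of the 10 was -0.29, against 0.14 for all listed genes. An adjusted p under 0.05 in the authors' deposited table was listed for 3 of the 10, all lower, where 5.33% of the listed genes are called lower. By edgeR over the listed genes all 10 passed, where 90.2% of the tested genes did, so that count carries no information on the pathway. By the same rule Stat5a passed and Stat2 did not, which is no test of either gene, since the table was selected on these same libraries. Adjusted over the 16064 genes, neither passed by edgeR. The rest of the list is not analysed here, so the counts do not describe the whole pathway.

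Among the listed pathway genes other than Stat5a and Stat2, Ghr was the most abundant, by scaled counts and by FPKM. The other receptors upstream of Stat5a did not share this place per gene length. Prlr came next by scaled counts but lay below Bcl2l1 by mean FPKM, and Csf2ra had the lowest mean FPKM in both groups. Ghr, the growth hormone receptor, which signals through Jak2 to STAT5, had 14668, 15406, 13921 and 14464 scaled counts in control and 11956, 10869, 11600.1 and 12813 with propionate. Its groups did not overlap, and it fell (adjusted p = 0.00231, authors' deposited table), with an edgeR log2 fold change of -0.31 ± 0.07 (SE). Prlr, the prolactin receptor, had 5384, 7867, 6053 and 5738 in control and 4808, 5567, 4085 and 5359 with propionate. The Prlr groups overlapped at 1 propionate sample, and its adjusted p in the authors' deposited table is 0.246.

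Csf2ra, the alpha chain of the GM-CSF receptor, known from myeloid cells, had 250, 217, 286 and 188 scaled counts in control and 206, 141, 172 and 149.7 with propionate, with overlapping groups. Its adjusted p in the authors' deposited table is 0.193. Lifr, the receptor of leukaemia inhibitory factor, which signals mainly to Stat3, had means of 1755 ± 105 in control and 1554 ± 129 with propionate (SD, n = 4), with overlapping groups. Of the 17 receptors upstream of STAT5 on the list 3 are in the table, and of the 4 type I and type III interferon receptors upstream of Stat2 none is. None of the 22 ligands is in the table either.

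Jak2, the kinase that serves the receptors for growth hormone, prolactin and GM-CSF, had 1261, 1164, 1174 and 1049.7 scaled counts in control and 1167, 941, 948 and 939.7 with propionate. Of the propionate samples 3 lay below every control, and replicate 1 lay among the controls. Its adjusted p in the authors' deposited table is 0.367. The edgeR log2 fold change of Jak2 was -0.22 ± 0.09 (SE), and the other 3 Janus kinases are not analysed here.

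Med14, a Mediator subunit that in human cells binds the STAT2 activation domain, fell (adjusted p = 0.00158, authors' deposited table). It had 1167, 1353, 1290 and 1323 scaled counts in control and 1054, 976, 995 and 994 with propionate, without overlap. Pias4, a SUMO ligase of the family that restrains STAT proteins, was the 1 pathway gene that was higher. It had 417, 482, 526 and 445 in control and 556, 658, 534 and 644 with propionate, without overlap, and its adjusted p in the authors' deposited table is 0.110.

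Of 25 textbook STAT5 targets 1 is in the table. This is Bcl2l1, which encodes the survival protein Bcl-xL, with means of 2772 ± 126 in control and 2493 ± 154 with propionate (SD, n = 4). Its groups were separated by a narrow margin, from 2653 as the lowest control to 2639.6 as the highest propionate sample, and its adjusted p in the authors' deposited table is 0.367. Within groups Bcl2l1 ran against Stat2 (r = -0.92 over 8 libraries) and had an r of 0.40 with Stat5a. The SOCS genes and Cish, which report STAT5 activity in many tissues, are not analysed here.

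Of 49 interferon-stimulated genes, the class that Stat2 drives, 2 are in the table, both lower with propionate. Samd9l, an interferon-induced antiviral gene, had 2175, 2063, 1955 and 1892 scaled counts in control and 1788, 1699, 1471 and 1402 with propionate. Its groups did not overlap, and it fell (adjusted p = 0.0369, authors' deposited table). Eif2ak2, which encodes the double-stranded RNA sensor PKR, had 591, 520, 606 and 507 in control and 534, 459, 460.1 and 391.5 with propionate, with overlapping groups (adjusted p = 0.349, authors' deposited table). It is the pathway gene whose scatter was most like that of Stat2. The rest are not analysed here, so these data do not show the state of the interferon response.

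**Figure D4:**
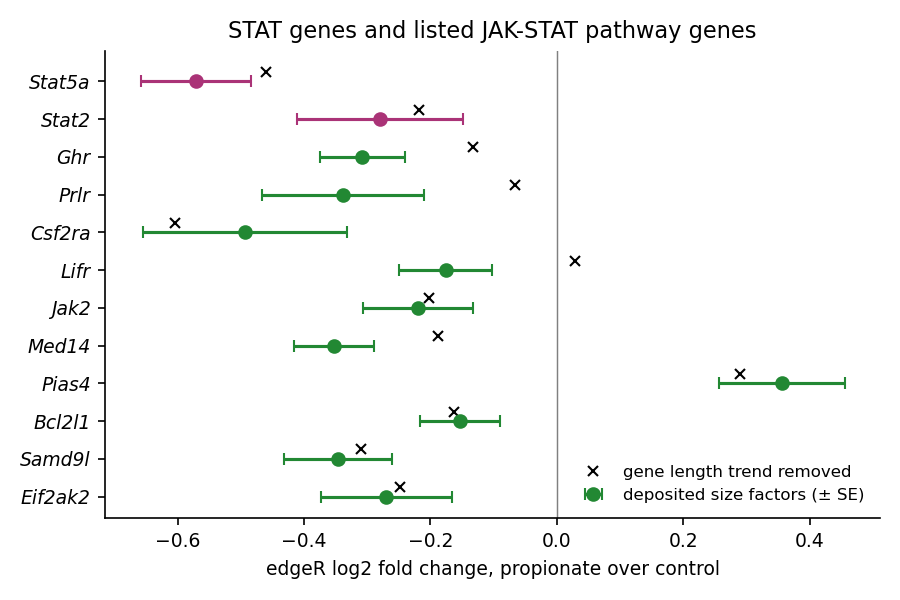
edgeR log2 fold change, propionate over control, ± SE for Stat5a, Stat2 and the 10 other pathway genes of the table (circles), with the value after removal of a gene length trend (crosses). Pias4 lies above 0, and Lifr crosses to 0.03 with the trend removed.

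The size of these differences depended in part on an adjustment for gene length. The trend was fitted on the listed genes only, which were selected for a group difference. Its removal can therefore absorb part of that difference, and it does not show which values are nearer the truth. When a trend with gene length was removed from each library, the median over the tested genes moved by -0.15 on the log2 scale, from 0.16 to 0.01. Relative to that median, Stat5a went from -0.73 to -0.47 and Stat2 from -0.44 to -0.23. With the trend removed, Prlr had a log2 fold change of -0.07, Ghr of -0.13, Med14 of -0.19 and Lifr of 0.03, the 1 change of sign among the 12 genes. Csf2ra had -0.60, Samd9l -0.31, Eif2ak2 -0.25, Jak2 -0.20, Bcl2l1 -0.16 and Pias4 0.29.

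**Figure D5:**
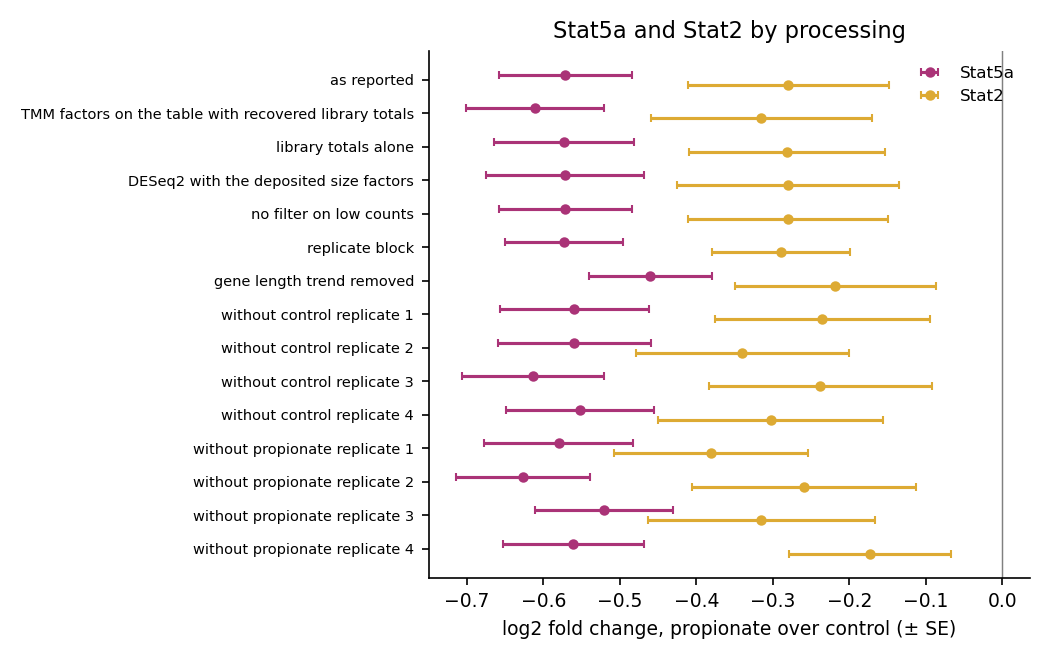
Log2 fold change, propionate over control, ± SE for Stat5a and Stat2 as reported and under 14 alternatives of scaling, tool, filter, block and left-out library. Stat5a stays between -0.63 and -0.46 and Stat2 between -0.38 and -0.17.

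As the table gives them, Stat5a lies on chromosome 11 from 100750177 to 100775995 and Stat2 on chromosome 10 from 128106428 to 128128718, both on the plus strand. The sources used here do not name the build of these positions. They do not match GRCm38.p6, the build of the promoter windows printed below, whose coordinates lie beyond the gene ends given here. Positions from the table and from those windows therefore cannot be compared. The deposited gene lengths, 7133 bases for Stat5a and 5926 for Stat2, equal the summed exon lengths of these genes in the GENCODE M21 annotation. That annotation has 7 transcripts and up to 20 exons for Stat5a, and 8 transcripts and up to 24 exons for Stat2. Stat5a stands in a cluster of STAT genes: Stat5b, its close paralog, begins 8.63 kb away on the opposite strand, and the end of Stat3 overlaps the end of Stat5a by 72 bases, also on the opposite strand. The sources used here do not say whether counting used strand, so reads in those 72 bases cannot be assigned with certainty. Stat2 overlaps no annotated gene.

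Reads shared between Stat5a and Stat5b are a limit of the Stat5a counts. Of the 7921 different 150-base words in the annotated Stat5a transcripts, the read length of these libraries, 175 (2.21%) also occur in Stat5b and in no other annotated gene. For 50-base words the share was 8.52%, with Stat5b and, to a lesser extent, Stat3. None of the 6305 words of 150 bases from Stat2 occurs in another gene. The longest run that Stat5a and Stat5b share exactly has 324 bases and lies within the coding part of both genes. It is shown because reads that fall inside it cannot be told apart (its leading 300 bases, from base 904 to 1203 of transcript Stat5a-201 in GENCODE M21, 5′ to 3′).
Stat5a and Stat5b: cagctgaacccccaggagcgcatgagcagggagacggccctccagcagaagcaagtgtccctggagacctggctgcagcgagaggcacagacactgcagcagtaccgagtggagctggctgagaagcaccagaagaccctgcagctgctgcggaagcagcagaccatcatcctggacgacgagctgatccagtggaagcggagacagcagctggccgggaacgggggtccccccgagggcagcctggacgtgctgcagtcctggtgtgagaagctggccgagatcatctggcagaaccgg

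Promoter windows from RefSeq (GRCm38.p6, 250 bases before to 50 after the annotated start) differed between the genes in the elements that STAT proteins are known to bind. They are printed for that reason, with motif matches in capitals. The window of Stat2 held an ISRE core (GAAANNGAAA on the opposite strand, at -222 from the start) and a palindrome with 4 central bases (TTCNNNNGAA, at -210), which do not overlap. The window is chr10:128270248-128270547, plus strand.
Stat2: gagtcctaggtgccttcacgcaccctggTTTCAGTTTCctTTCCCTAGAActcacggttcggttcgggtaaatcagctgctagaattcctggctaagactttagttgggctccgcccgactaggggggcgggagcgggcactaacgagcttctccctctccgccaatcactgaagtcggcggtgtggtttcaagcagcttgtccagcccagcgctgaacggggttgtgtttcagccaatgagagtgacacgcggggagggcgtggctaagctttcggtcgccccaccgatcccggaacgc
Stat5a has 2 annotated starts, with windows at chr11:100859406-100859705 and chr11:100860234-100860533, plus strand. Neither held a match to either motif or to the GAS palindrome TTCNNNGAA.
Stat5a, upstream start: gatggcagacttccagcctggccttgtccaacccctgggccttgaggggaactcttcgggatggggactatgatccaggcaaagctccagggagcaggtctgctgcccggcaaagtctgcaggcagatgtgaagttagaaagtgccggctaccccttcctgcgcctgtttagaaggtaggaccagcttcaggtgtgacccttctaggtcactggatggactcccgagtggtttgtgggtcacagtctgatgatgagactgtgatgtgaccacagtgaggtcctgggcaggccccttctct
Stat5a, downstream start: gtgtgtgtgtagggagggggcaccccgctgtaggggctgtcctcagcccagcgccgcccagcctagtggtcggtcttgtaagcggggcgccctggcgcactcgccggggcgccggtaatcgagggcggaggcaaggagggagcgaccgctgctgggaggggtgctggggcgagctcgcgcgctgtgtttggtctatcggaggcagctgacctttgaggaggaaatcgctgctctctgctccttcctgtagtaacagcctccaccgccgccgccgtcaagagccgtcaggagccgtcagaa

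Such matches are common enough to be a description only. Both strands were searched, and of 32851 promoter windows 3.44% held the ISRE core, 6.95% the palindrome with 4 central bases and 8.30% the GAS palindrome. The windows of the listed genes held them at 2.9%, 4.29% and 6.69%, with 1409 of 1931 gene names matched. Among the other pathway genes of the table, the window of Eif2ak2 held an ISRE core and a GAS palindrome, 1 of 3 windows of Prlr held a GAS palindrome and 1 of 3 windows of Bcl2l1 held the palindrome with 4 central bases. Another searched pattern, GAAANNNGAAA, was held by 2.75% of the 32851 windows. It occurred in the windows of Samd9l and Med14 and not in those of Stat5a or Stat2. Pias4 had no entry.

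The listed genes nearest to Stat5a are Kcnh4, a potassium channel gene 99.4 kb away with a mean of 11.6 scaled counts in control and 1.22 with propionate, and Ezh1, a histone methyltransferase gene 306 kb away with 419 and 205. Those nearest to Stat2 are Spryd4, 58.8 kb away with 240 and 287, and Zc3h10, a zinc finger gene 249 kb away with 196 and 236. None of the 4 has an adjusted p under 0.05 in the authors' deposited table.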

How the data were processed

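Kidney RNA-seq values of 8 libraries, 4 control and 4 propionate, were taken from 1 table. The authors deposited raw read counts, scaled counts (a signal: counts over a size factor of the library) and FPKM, per the file headers. The log2 fold change and the p-value of each gene, unadjusted and adjusted, were also deposited by the authors, and the sign of the fold change was checked against the group means. The submitters' processing notes name DESeq2 and mm10, and the sources used here name neither aligner nor counter. The deposited positions of Stat5a and Stat2 do not match the GRCm38.p6 coordinates of their promoter windows. Size factors and library totals (20005328 to 26711127 reads) were recovered from the table.

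The counts were fitted with edgeR 4.0.16 (quasi-likelihood test, R 4.3.3), with the authors' size factors, the default filter and no covariate, over 1793 genes with Benjamini-Hochberg adjustment. Factors recomputed from genes selected for a difference would rest on those genes, as do the TMM and gene length alternatives below. Adjustment over a preselected table passes most genes by construction. Stat5a, Stat2 and the gene lists were chosen with earlier results of these data known. The named genes are these 2, all pathway list genes in the table, the 5 genes closest to each by group-centred correlation on log2(scaled count + 1), and the nearest listed genes on each side. Alternatives were TMM, total counts, DESeq2 1.42.0, no filter, a replicate block, a gene length trend and each library left out. The edgeR step was tested on simulated data. Group labels are the only source of grouping, and if libraries share animals the errors measure technical spread only.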

Additional observations from a re-analysis of the deposited data

Results flagged for a closer look

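The lowest or highest library of a group of 4 was compared with its neighbours by Dixon's ratio against its critical value in 26 groups: Stat5a, Stat2, the 10 other pathway genes and the Stat5a to Stat2 ratio, each in control and propionate. Chance flags about 1 in 20 such groups, and 2 were found. For Stat5a in control, replicate 3, with 490 scaled counts, stood apart from 552, 552 and 560.1 (ratio 0.88). Without it the log2 fold change of Stat5a was -0.61. For Jak2 with propionate, replicate 1, with 1167 scaled counts, stood apart from 941, 948 and 939.7 (ratio 0.964).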

How the results depend on the processing

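Stat5a and Stat2 kept their direction and moved by less than the spread between replicates under each alternative run. For Stat5a the largest move, from -0.57 to -0.46 with the length trend removed, came close to that spread (SD 0.112). It was larger than the SE of 0.09. The FPKM ratio was run only with a library left out, and there it also kept its direction and moved by less than its spread. With a library left out, the log2 fold change ranged from -0.63 to -0.52 for Stat5a and from -0.38 to -0.17 for Stat2, and the ratio difference, propionate minus control, from -0.16 to -0.08. Removing the length trend gave -0.46 and -0.22. Replicate numbers were taken as names only, since the labels tie them to nothing shared and not every same-numbered pair had a deviation correlation over 0.1 (0.17, 0.36, 0.02 and 0.21). Whether they mark a pairing is unsettled: 3 of the 4 exceed it, and control replicate 1 was closest to propionate replicate 3. With the replicate number as a block the log2 fold changes were -0.57 ± 0.08 for Stat5a and -0.29 ± 0.09 (SE) for Stat2, whose SE without the block was 0.13, and the count of genes past an adjusted p of 0.05 was 1562. That count, 1617 of 1793 listed genes with 53.4% higher, was far less stable. It was 614 with the length trend removed, and the share higher was 38.2% with TMM. It ranged from 30 to 1389 with a library left out (546, 180, 30 and 156 for control replicates 1 to 4 left out in turn, 127 for propionate replicate 3 and 163 for propionate replicate 4), fewer samples in each fit. Adjusted over 16064 genes it was 0 by edgeR, where 1691 had an unadjusted p under 0.05, and 172 by DESeq2, an alternative chosen after seeing the data. The cause of the length trend's effect was not tested. Counting error, 4.71% at the mean Stat5a count over both groups and somewhat less in control, limits the precision of the Stat5a control level (observed 6.04%).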

Other observations

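The authors' deposited table assigns 100 listed genes to 25 transcription factor families, 56 lower and 44 higher with propionate. Stat5a has the smallest p among them. Of the others, Zfp622 and Id4 are named here after their values were seen. Zfp622, a zinc finger gene, rose (mean 664 scaled counts in control and 896 with propionate, adjusted p = 0.0032 in the authors' deposited table). Id4, an inhibitor of basic helix-loop-helix factors, fell from 1726 to 1174 (adjusted p = 0.00633 in the authors' deposited table). By unadjusted p, Stat2 has the rank 96 among the 100.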
